A study of Mus musculus with 1073 samples.

Results

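The change of gene expression in *Flk1*-GFP+ extraembryonic mesoderm of the mouse yolk sac between E7.25 and E7.75 (E, embryonic day) was measured in single cells. The comparison took all cells of both stages that passed the authors' filter, 287 of the 1073 cells of the series analysed here, of which 140 are of E7.75. In the deposited table the columns of the E7.25 cells carry the name E7.5, and the sample titles give the stage as E7.25. Of 15967 genes in that table, the 8874 with a mean level of 10 CPM (counts scaled to the size of the cell's library) or more and a count in 10% of cells or more at either stage were compared.

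Both stages were taken from *Flk1*-GFP/+ embryos, in which 1 allele of *Flk1* (gene symbol *Kdr*) carries green fluorescent protein, and cells were sorted for GFP. The line was kept on a C57BL/6 background, and the yolk sacs of several embryos were pooled for a sort. Yolk sacs of both stages were dissociated with trypsin, whereas the yolk sacs of the later populations used below for comparison came from C57BL/6 embryos and were dissociated with collagenase and dispase. Each stage was captured on 2 microfluidic chips, which are named here by the lane of the sequencer they occupied: 73 and 74 cells in lanes 6 and 7 at E7.25, and 53 and 87 cells in lanes 7 and 8 at E7.75. The E7.25 lanes lay on 1 flow cell and the E7.75 lanes on another, so stage and flow cell cannot be told apart. The captures reused 1 set of 95 index pairs, which mark the cells of a chip, and 38 of them occur in all 4 captures. The labels name no embryo or pool for a cell. Each stage is therefore treated as 1 sample, no test across embryos was made, and no p-value is given.

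Extraembryonic mesoderm is formed by cells that leave the posterior primitive streak and spread over the visceral endoderm. *Flk1*, the receptor VEGFR2, marks the mesoderm from which blood and endothelium of the yolk sac arise. In the blood islands a wave of primitive erythroid cells appears, which contain embryonic globins and are driven by GATA1 and KLF1. Other cells of the same layer become endothelium, or the mesenchyme and smooth muscle that line the yolk sac. The comparison asks which of these programmes differ between the stages.

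A gene was said to have risen when its mean CPM + 1 was 2-fold or more higher at E7.75 and each E7.75 capture mean was above each E7.25 capture mean. It was said to have fallen in the mirrored case. A compared gene with a mean under 10 CPM at 1 stage could be called in 1 direction only, since it was compared through the other stage. By this rule 396 genes rose, 4.46% of those compared, and 462 fell, 5.21% of those compared. The median log2 ratio of all compared genes was 0.04, and the 10th and 90th percentiles were -0.74 and 0.69. Of the genes that rose, 85 changed by 4-fold or more and 24 by 8-fold or more, and of those that fell 77 and 8 did so. In 38.6% of the genes that rose and 42.6% of those that fell, the nearest captures of the 2 stages were also 2-fold or more apart. Captures of the same stage differed too: 503 compared genes (5.67%) were 2-fold apart between the E7.25 captures and 631 (7.11%) between the E7.75 captures. In the scatter of stage means, genes that rose and genes that fell both spread over a wide range of levels. When each gene was averaged without its highest cell at each stage, an alternative added after the data were seen, 302 genes rose and 424 fell, of which 281 and 382 were among those above. Under the mean of log values, in which log2(CPM + 1) is averaged over cells, 221 rose and 400 fell. Without the E7.75 lane 8 capture 739 rose and 727 fell.

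**Figure D1:**
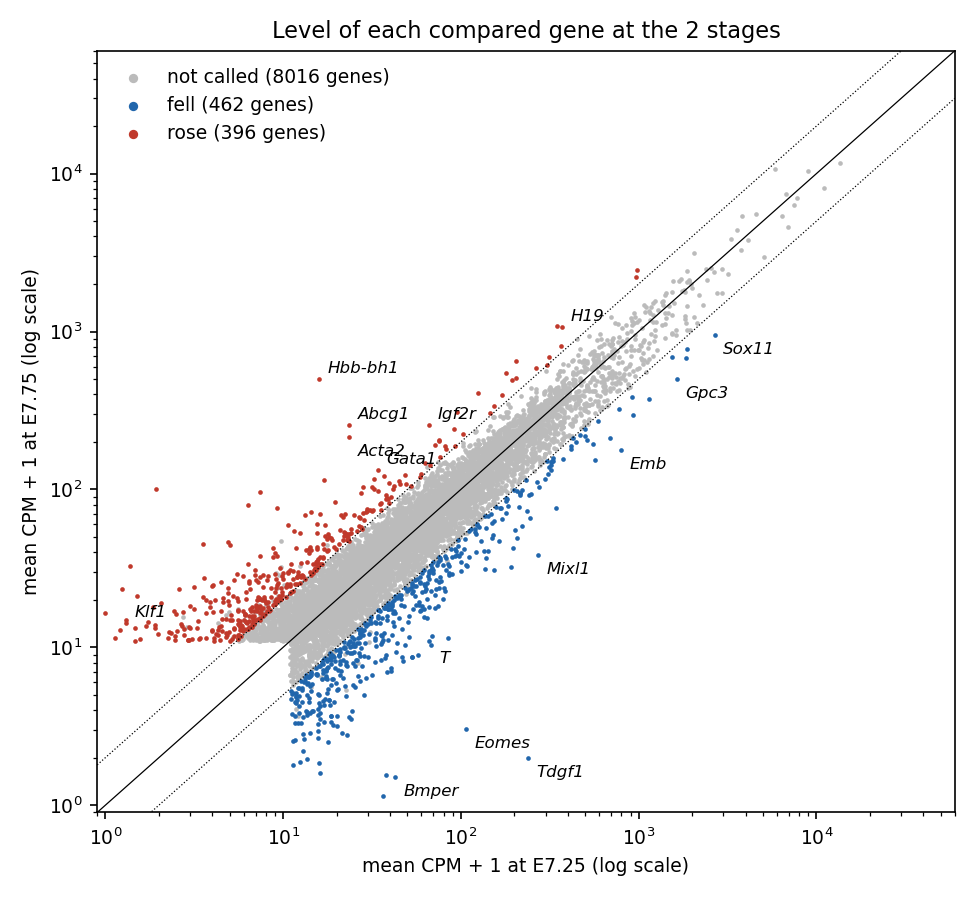
Mean CPM + 1 of each of the 8874 compared genes at E7.25 (x axis) and E7.75 (y axis), both on log scales. Red points rose (396 genes), blue points fell (462 genes), grey points were not called (8016 genes), the solid line marks equal levels and the dotted lines 2-fold differences.

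The sorted cells carried the markers of their label at both stages. The summed CPM of 7 markers of extraembryonic mesoderm (*Foxf1*, *Hand1*, *Tbx20*, *Bmp4*, *Pmp22*, *Vim* and *Kdr*) averaged 1294 CPM in E7.25 and 1771 CPM in E7.75 cells, of which *Pmp22*, a membrane protein that many tissues express, made up 606 and 960 CPM. It was 100 CPM or more in every E7.25 cell and in all but 17 E7.75 cells. None of these markers rose, and *Kdr* fell. *Foxf1*, a forkhead factor of lateral and extraembryonic mesoderm, was at a mean of 61.8 CPM at E7.25 and 103.6 CPM at E7.75. *Hand1*, a basic helix-loop-helix factor of the same tissue, was at 158.4 and 173 CPM, and *Tbx20* at 81.1 CPM at both stages. These values did not meet the rule for a change.

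*Kdr* (chromosome 5, 75932827 to 75978458, minus strand; coordinates here and below are of GRCm38), the locus that carried the reporter, fell by 1.57 on the log2 scale. Its mean was 109.5 CPM at E7.25 (captures 127.6 and 91.6 CPM) and 36.3 CPM at E7.75 (captures 40.2 and 33.8 CPM). At least 10 counts were present in 92.5% of E7.25 cells (exact 95% binomial interval 87.0 to 96.2) and in 48.6% of E7.75 cells (40.0 to 57.2). Both E7.75 captures were below both E7.25 captures, although all cells had been sorted on GFP. Intervals here and below cover counting error over cells only, and reads without molecular identifiers are not independent molecules.

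Depth and sex differed between captures. Total counts per cell were 875346 to 3309556 (median 1822221) at E7.25 and 533103 to 4523772 (median 2017803) at E7.75, with medians of 8759 and 8722 genes detected. The E7.75 captures differed in depth, with medians of 2759528 counts in lane 7 and 1620915 in lane 8. Counts of *Xist*, made from the inactive X chromosome of female cells, and of 4 Y-linked genes were compared as a check on mixed cells. At E7.25, 33 cells (22.4%, interval 16.0 to 30.1) had 5 or more counts of both, and at E7.75 17 did (12.1%, 7.24 to 18.7). In E7.75 lane 7, 52 of 53 cells had Y-linked counts only, whereas in E7.75 lane 8 59 of 87 had *Xist* only. The E7.75 captures thus differed in sex make-up, and both E7.25 captures held both sexes. Of 349 compared X-linked genes, a group chosen after the values were seen, 15 rose (4.3%, against 4.46% of all compared genes) and 43 fell (12.3%, against 5.21%).

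The ratio between stages moved with the GC content of the transcript. Over the 8617 compared genes with a known transcript, Spearman's rho of GC content and log2 ratio was 0.43, given as a description across genes that share the same libraries. Between the captures of E7.25 it was 0.10, and between those of E7.75 -0.14. The median log2 ratio was -0.47 for genes of at most 40% GC, of which 17.8% fell and 2.17% rose, and 0.43 for genes above 60% GC, of which 0.794% fell and 14.3% rose. The median GC content was 51.8% for genes that rose, 42.8% for genes that fell and 48.1% for all. Populations of E8.5 and E10.5, which lay on the same pair of flow cells, gave rho values of 0.17 in endothelium (Endo), 0.25 in megakaryocytes (Mk) and 0.24 in haematopoietic progenitors (HPC), whereas E8.25 and E8.5 HPC on a single flow cell gave 0.08. What flow cell and stage each add to the ratio was not tested. When each gene was set against genes of like GC content, an alternative added after the data were seen, 354 genes rose and 339 fell, of which 300 and 301 were among those above.

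**Figure D2:**
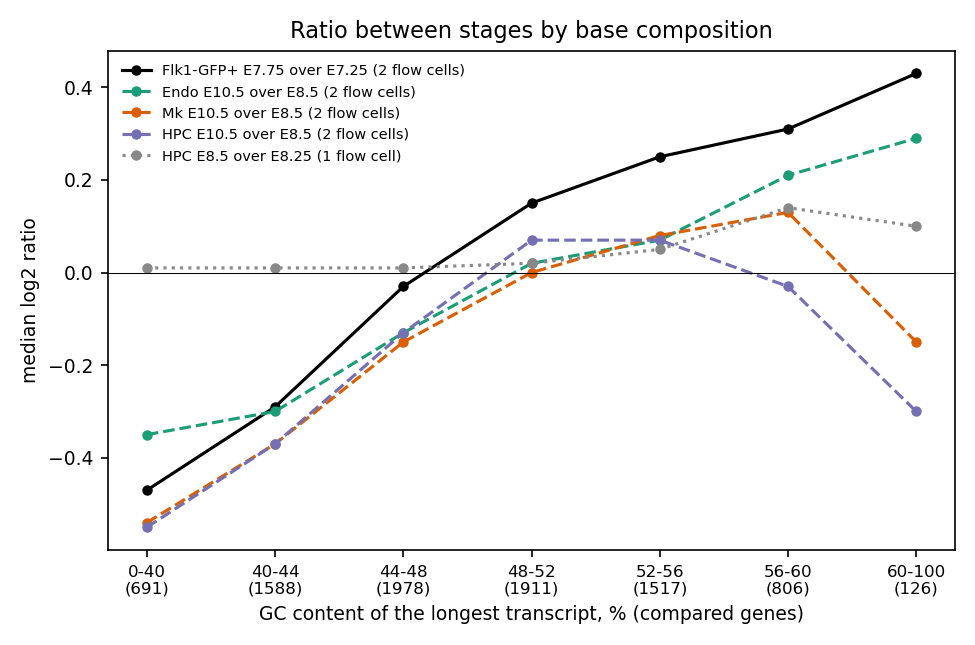
Median log2 ratio of the compared genes (y axis) in 7 bins of GC content of the longest transcript (x axis, with the number of compared genes in brackets). The black line, E7.75 over E7.25 mesoderm, climbs from -0.47 to 0.43, the dashed lines are E10.5 over E8.5 in 3 lineages across the same flow cells, and the dotted grey line is E8.5 over E8.25 HPC within a flow cell.

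The E8.5 and E10.5 populations, which share no cells with the mesoderm, were used to see how often a gene moved the same way across the same flow cells. Of the genes that rose, 32.6% (against 12.8% of all compared genes) were also 2-fold higher at E10.5 than at E8.5 in Endo, 25.0% (against 10.9%) in Mk and 11.4% (against 4.03%) in HPC. Of the genes that fell, 31.0% (against 18.3%), 34.0% (against 13.0%) and 35.7% (against 12.3%) were 2-fold lower. A move in the same direction in all 3 lineages was seen for 9 genes that rose (2.27%, against 0.507%) and for 44 that fell (9.52%, against 1.86%). These shares were above those of all compared genes in each lineage, and stage, lineage and flow cell cannot be told apart in them.

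Genes of the primitive streak and nascent mesoderm fell together. The list has 27 members, of which 10 were compared. Of these 8 fell and none rose, where 5.21% of all compared genes fell, and their median log2 ratio was -2.65, against 0.04 for all compared genes. All that fell except *Mixl1* were under 10 CPM at E7.75. They were compared through their E7.25 level alone and so could not have been called as risen. *Tdgf1* (chromosome 9, 110939603 to 110946158, minus strand), the Nodal co-receptor Cripto, had a mean of 238 CPM at E7.25, with 263 and 214 CPM in its captures, and of 0.993 CPM at E7.75, with 0.0104 and 1.59 CPM in its captures. Its log2 ratio was -6.91, the lowest of all members, and the median cell had 51.8 CPM at E7.25 and 0 at E7.75. At least 10 counts were found in 67.3% of E7.25 and 2.14% of E7.75 cells. The processed pseudogene *Tdgf1-ps1*, chosen after its values were seen, followed it with a log2 ratio of -5.0, and reads shared between the copies could not be assigned with certainty.

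*Eomes* (chromosome 9, 118478212 to 118486132, plus strand), a T-box factor needed for mesoderm to leave the streak, had a mean of 105.6 CPM at E7.25 (captures 146.7 and 65.1 CPM) and 2.04 CPM at E7.75 (captures 1.15 and 2.58 CPM). *Mesp1* (chromosome 7, 79792241 to 79793788, minus strand), a basic helix-loop-helix factor of the earliest mesoderm, had 15.0 CPM (16.8 and 13.1) and 0.849 CPM (0.022 and 1.35). *Eomes* fell by 5.13 and *Mesp1* by 3.11 on the log2 scale, and the captures of the stages lay far apart for both. The share of cells with at least 10 counts was 63.9% and 5.71% for *Eomes* (intervals 55.6 to 71.7 and 2.5 to 10.9), and 51.7% and 4.29% for *Mesp1*.

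Other members fell less far in level. *Mixl1* (chromosome 1, 180693043 to 180697034, minus strand), a paired-like homeobox gene of the streak, had a mean of 270 CPM at E7.25 (357 and 185 in the captures) and 37.4 CPM at E7.75 (9.89 and 54.2). *T* (chromosome 17, 8434423 to 8442496, plus strand), or Brachyury, the T-box factor of the streak and axial mesoderm, had 66.6 CPM (85.2 and 48.2) and 9.40 CPM (3.63 and 12.9). The E7.75 lane 8 capture held more of both genes than lane 7, and both were below E7.25. *Mixl1* reached 10 counts in 61.2% of E7.25 but 19.3% of E7.75 cells (13.1 to 26.8), and *T* in 60.5% and 20.0% (13.7 to 27.6). *Lhx1*, a LIM homeobox gene, went from 65.0 to 9.90 CPM and *Wnt3*, a ligand that maintains the streak, from 18.3 to 3.50 CPM. *Fst*, which encodes the activin antagonist follistatin, went from 12.6 to 2.91 CPM, the latter mostly from 1 cell with 275 CPM (0.953 CPM without it). The remaining compared members were *Snai1* (19.1 and 13.6 CPM, log2 ratio -0.47) and *Cdx4*, whose ratio of 1.32 was in the opposite direction with overlapping captures (4.95 and 28.2 CPM at E7.25, 18.1 and 58.4 CPM at E7.75). In the 5 later populations measured on the E7.25 flow cell *Eomes*, *T*, *Mesp1* and *Tdgf1* were near 0.

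The promoters of *T* and *Mesp1*, which fell together, are shown because they hold the 6 letters CTTTGA, the core of the sequence bound by TCF/LEF factors, the nuclear effectors of WNT signalling. Each window runs from 250 bases before to 50 after a RefSeq start site of GRCm38.p6 and is written 5′ to 3′ on the strand of the gene, with matches on either strand in capitals (TCAAAG on the other strand).
T, chr17:8434173-8434472, plus strand: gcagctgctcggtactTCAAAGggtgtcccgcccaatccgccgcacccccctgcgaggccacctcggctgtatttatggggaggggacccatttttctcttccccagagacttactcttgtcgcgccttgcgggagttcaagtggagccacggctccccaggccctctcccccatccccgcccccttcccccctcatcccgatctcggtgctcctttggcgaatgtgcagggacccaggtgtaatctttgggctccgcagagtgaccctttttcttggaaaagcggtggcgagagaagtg
Mesp1, chr7:79793541-79793840, minus strand: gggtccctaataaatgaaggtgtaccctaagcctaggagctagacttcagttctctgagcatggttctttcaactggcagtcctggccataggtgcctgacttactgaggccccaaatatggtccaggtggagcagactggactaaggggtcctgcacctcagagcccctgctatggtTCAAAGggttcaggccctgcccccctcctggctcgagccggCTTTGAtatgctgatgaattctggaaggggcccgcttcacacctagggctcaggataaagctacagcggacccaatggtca
These letters were found in windows of 2 of the 6 streak genes that fell and have a window (*T* and *Mesp1*). They occur in 16.0% of all 32851 windows and in at least 1 window of 18.2% of genes. A match describes letters in the window and is not a measured binding site.

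Secreted regulators of mesoderm signalling were among the genes that fell, with most of their pathways not called. *Bmper*, a BMP-binding modulator that was the sole gene called among 11 compared of the BMP and TGF-beta list (median log2 ratio 0.18), had 41.7 CPM at E7.25 (35.0 and 48.3) and 0.506 CPM at E7.75 (0.0549 and 0.781), a log2 ratio of -4.82. Of all compared genes 5.21% fell, and under the mean of log values 3 of this list did. *Bmp4*, a ligand made by extraembryonic mesoderm, had 96.8 and 112.3 CPM and was not called. In the WNT list of 7 compared genes (median log2 ratio -0.15) 2 fell, where 5.21% of all compared genes did. *Dkk1*, an extracellular WNT antagonist, fell by 2.35 on the log2 scale and *Wnt2*, a ligand of the allantois, by 1.06. None of 10 compared genes of FGF signalling (median -0.04), 3 of Notch (median -0.42) or 3 of Hedgehog (median 0.17) was called. *Ptch1*, the Hedgehog receptor and a target of the pathway, had 183 and 307 CPM (log2 ratio 0.75), and *Notch2* 215 and 123.9 CPM (-0.79).

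Few genes of less mature cells were called. *Epcam*, an adhesion molecule of epiblast and other epithelia, had 16.8 CPM at E7.25 (17.2 and 16.3) and 4.47 CPM at E7.75 (2.43 and 5.71). *L1td1*, an RNA-binding protein of pluripotent cells, fell by 2.55 on the log2 scale and was the sole gene called among 6 compared of the pluripotency list (median -0.47), although without its highest cell it was under the level for comparison (9.68 CPM at E7.25). Under the mean of log values 2 of this list fell, and 5.21% of all compared genes fell by the main rule. *Sall4*, a factor of the same list, had 1071 and 660 CPM (log2 ratio -0.70). *Has2*, a hyaluronan synthase, and *Gata4*, a zinc finger factor of endoderm and mesoderm, fell by 1.33 and 1.29.

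The 15 genes with the largest falls among those at 100 CPM or more and in 50% of cells or more at E7.25 held 3 streak genes (*Tdgf1*, *Eomes* and *Mixl1*). *Emb*, the adhesion glycoprotein embigin, fell from 794 CPM (781 and 807 in the captures) to 176 CPM (120.3 and 210), and at least 10 counts were found in 99.3% and 90.7% of cells. *Skil*, or SnoN, a repressor of TGF-beta signalling, fell from 341 to 75.8 CPM and *Phf6*, an X-linked chromatin protein, from 566 to 153.3 CPM. These genes were still detected in most cells, so the fall lay in level more than in the share of cells. *Car14*, a membrane carbonic anhydrase, *Tmem47*, a junction-associated membrane protein, and *Ercc6l*, a DNA helicase of mitotic chromosomes, fell by 1.87, 1.92 and 1.89 on the log2 scale. A single E7.25 cell held 41.3% of the *Ercc6l* of its stage, and without the highest cells its log2 ratio was -1.23.

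Zinc finger genes of the *Zfp* family accounted for others: *Zfp808* fell from 190 to 31.4 CPM, *Zfp930* from 206 to 48.5 CPM and *Zfp932* from 137.98 to 35.9 CPM. Related predicted genes *Gm15446*, *Gm5595* and *6720489N17Rik* fell by 2.30, 2.21 and 2.12 on the log2 scale. Of 198 compared genes with a *Zfp* symbol, a group chosen after the values were seen, 5 rose and 45 fell (22.7%, against 5.21% of all compared genes), with a median log2 ratio of -0.40. Their median GC content was 42.9%, and their median log2 ratio from E8.5 to E10.5 across the same flow cells was also below 0, at -0.30 in Endo, -0.59 in Mk and -0.41 in HPC. Members of this family are similar in sequence, so reads may be split between them. The part of base composition in these falls was not tested.

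Among abundant genes chosen after their values were seen, *Sox11*, an SRY-box factor of embryonic progenitors, fell from 2675 CPM (2738 and 2613) to 948 CPM (957 and 943). *Gpc3*, a cell surface heparan sulphate proteoglycan, fell from 1638 to 499 CPM and *Gja1*, the gap junction protein connexin 43, from 1137 to 375 CPM. Captures of a stage differed little for these 3 genes. *Sp8*, a zinc finger factor of the early embryo, was found in few cells: at least 10 counts were present in 19.0% of E7.25 and 0.714% of E7.75 cells. *Robo1*, a guidance receptor, and *Vrtn* fell by 2.63 and 2.69.

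**Figure D3:**
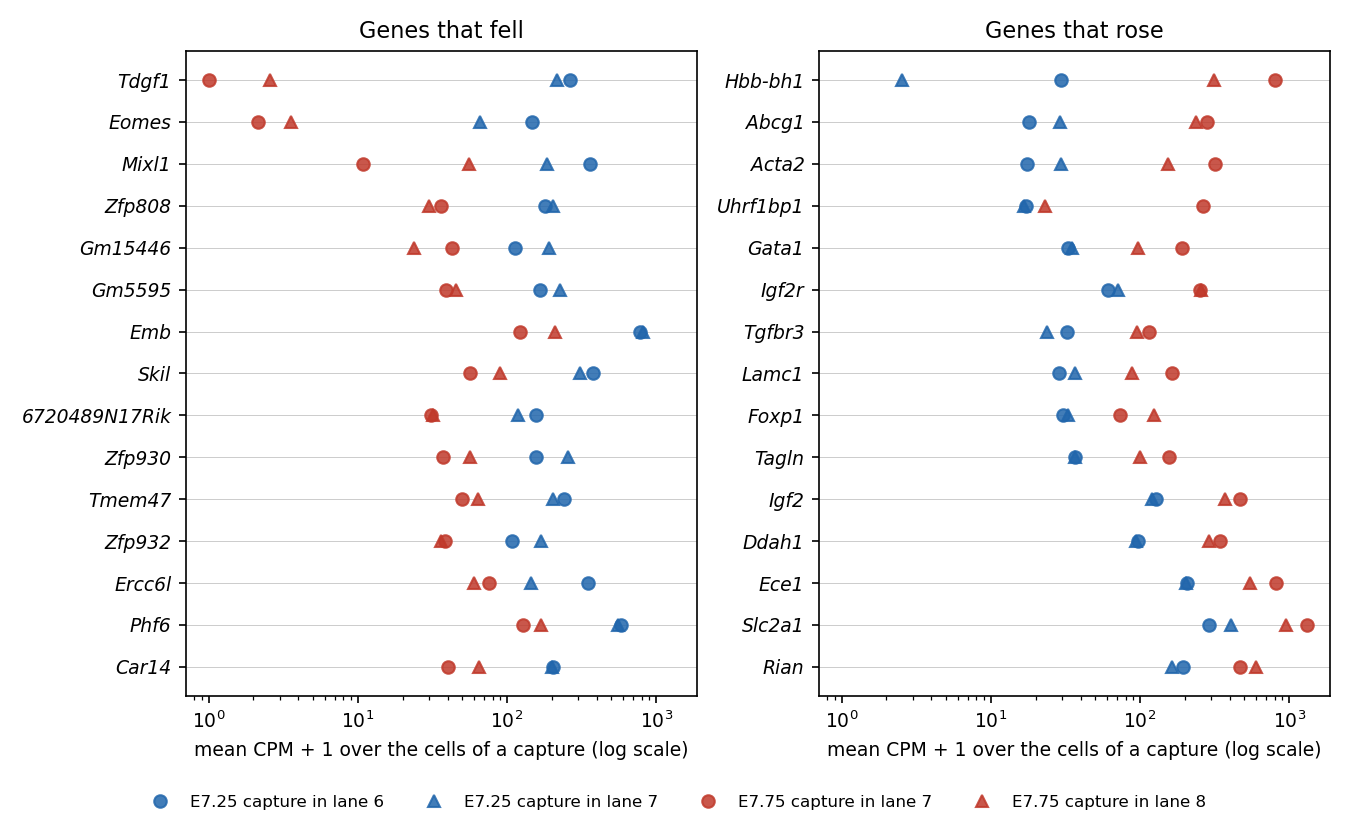
Mean CPM + 1 in each of the 4 captures (x axis, log scale) for the 15 genes that fell most (left) and the 15 that rose most (right) among genes at 100 CPM or more and in 50% of cells or more at the higher stage. Blue symbols are E7.25 and red symbols E7.75 captures, and for *Uhrf1bp1* the E7.75 lane 8 capture (22.1 CPM) lies close to both E7.25 captures (16.2 and 15.6 CPM), and 1 cell holds most of the lane 7 value.

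Of 32 compared genes in 4 lists of the primitive erythroid and early blood programme 15 rose and none fell, where 4.46% of all compared genes rose and 5.21% fell, with a median log2 ratio of 0.93. Members under 10 CPM at E7.25, such as *Klf1*, *Alas2* and *Adgrg1*, were compared through E7.75 alone and could not have been called as fallen. *Hbb-bh1* (chromosome 7, 103841637 to 103843164, minus strand), an embryonic beta-like globin, had a mean of 15.0 CPM at E7.25, with 28.7 and 1.54 CPM in the captures, and of 498 CPM at E7.75, with 804 and 312 CPM. It was 33.2-fold higher, and the highest cell held 1482 CPM at E7.25 and 13417 CPM at E7.75. Without the highest cell of each stage the means were 4.98 and 405 CPM, and the log2 ratio was 6.09 in place of 4.96. The level was spread unevenly: at E7.75, 52 of 140 cells had 10 counts or more and 60 had 1 to 9. Counts were also present in cells that should lack the gene: 10.1% of E8.5 and 14.8% of E10.5 endothelial cells had at least 1 count, and 5.06% (1.40 to 12.5) and 6.56% (1.82 to 15.9) had at least 10, at median depths of 1874645 and 1943904 counts. Among mesoderm cells, 6.12% of E7.25 cells (2.84 to 11.3) held 10 counts of *Hbb-bh1*, a share no higher than in E10.5 endothelium, against 37.1% at E7.75 (29.1 to 45.7), above both. Of the remaining globins none reached the level for comparison: *Hba-x*, the zeta-like chain, was at 0 and 5.65 CPM and *Hbb-y*, the epsilon-like chain, at 1.93 and 7.12 CPM. E8.5 primitive erythroid cells held 56134 CPM of *Hbb-bh1*.

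*Gata1* (chromosome X, 7959260 to 7978071, minus strand), the zinc finger factor that directs erythroid and megakaryocyte genes, had a mean of 33.1 CPM at E7.25 (32.0 and 34.1) and 132.01 CPM at E7.75 (190 and 96.4), a log2 ratio of 1.96. It reached 10 counts in 22.4% of E7.25 cells (16.0 to 30.1), against 37.1% at E7.75 (29.1 to 45.7), so *Gata1* was already in a part of the E7.25 cells. *Klf1* (chromosome 8, 84901928 to 84905291, plus strand), the erythroid Krüppel-like factor, had 0.308 CPM (0.153 and 0.462) and 13.3 CPM (13.2 and 13.4), and reached 10 counts in 1.36% and 23.6% of cells. No E8.5 endothelial cell had a count of either gene, and of 61 E10.5 endothelial cells 1 had a count of *Gata1* and 2 of *Klf1*, with 1.64% at 10 counts of *Klf1* (0.0415 to 8.80). Of 15 compared haematopoietic transcription factors 6 rose, against 4.46% of all compared genes, and none fell (median log2 ratio 0.57). The others that rose were *Gfi1b*, a repressor needed for erythroid cells and megakaryocytes (13.3 and 70.8 CPM), *Nfe2*, a bZIP factor of the same lineages (0.892 and 12.2 CPM, the latter 9.97 CPM and no longer compared without its highest cell), *Myb*, a factor of progenitors (5.21 and 21.4 CPM), and *Cbfa2t3*, a co-repressor of GATA1 complexes (14.5 and 41.9 CPM).

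Factors that act earlier in blood and endothelial specification were not called. *Tal1*, which is required for all blood, had 42.6 and 43.7 CPM, and its partner *Lmo2* had 36.5 and 49.0 CPM. *Runx1*, required for definitive blood, had 66.9 CPM at E7.25 (91.2 and 42.8) and 85.0 CPM at E7.75 (65.1 and 97). The captures of the stages overlapped for each of these genes. *Gata2* had 84.7 and 68.6 CPM. Of 7 compared endothelial factors none was called (median log2 ratio -0.15), with *Etv2*, the ETS factor that starts the blood and endothelial programme, at 29.6 CPM (33.0 and 26.2) and 15.4 CPM (22.2 and 11.2), and *Fli1*, a later ETS factor, at 137.6 and 129.7 CPM. The log2 ratio of *Etv2* was -0.90, and when set against genes of like GC content it was -1.22, past 2-fold.

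Of 13 compared genes for haem, iron and the red cell membrane 5 rose, against 4.46% of all compared genes, and none fell (median log2 ratio 0.89). Under the mean of log values 4 rose and 1 fell. *Alas2*, the erythroid enzyme of the first step of haem synthesis, had 6.45 CPM (9.58 and 3.35) and 27.0 CPM (49.0 and 13.6). *Fech*, the enzyme of the last step, rose by 1.15 on the log2 scale and *Slc25a37*, the mitochondrial iron carrier mitoferrin, by 1.30. *Epor*, the erythropoietin receptor, and *Sptb*, a spectrin of the red cell skeleton, rose by 2.33 and 2.93. *Tfrc*, the transferrin receptor, had 387 and 217 CPM and was not called. The early blood surface list has 10 members, of which 3 were compared, and all 3 rose. *Kit*, the stem cell factor receptor, had 14.5 and 52.1 CPM. *Itga2b*, the integrin CD41 that marks the first blood progenitors, had 0.977 and 11.2 CPM. Without its highest cell the latter was 9.03 CPM and then under the level for comparison. *Adgrg1*, an adhesion receptor, had 0.245 and 22.3 CPM. *Itga2b* and *Adgrg1* were compared through their E7.75 level alone, so neither could have been called as fallen.

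The promoters of *Klf1*, *Alas2* and *Gfi1b*, 3 genes that rose with *Gata1*, are shown because they hold GATAA, letters that the factor GATA1 recognises. Windows are as above, 5′ to 3′ on the strand of the gene, with GATAA or TTATC of the other strand in capitals.
Klf1, chr8:84901732-84902031, plus strand: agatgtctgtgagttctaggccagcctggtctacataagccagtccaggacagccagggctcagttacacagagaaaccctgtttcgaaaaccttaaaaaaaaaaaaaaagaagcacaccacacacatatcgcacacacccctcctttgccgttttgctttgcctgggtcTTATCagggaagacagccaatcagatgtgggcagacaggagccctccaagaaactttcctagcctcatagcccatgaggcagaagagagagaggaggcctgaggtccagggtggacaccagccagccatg
Alas2, chrX:150547167-150547466, plus strand: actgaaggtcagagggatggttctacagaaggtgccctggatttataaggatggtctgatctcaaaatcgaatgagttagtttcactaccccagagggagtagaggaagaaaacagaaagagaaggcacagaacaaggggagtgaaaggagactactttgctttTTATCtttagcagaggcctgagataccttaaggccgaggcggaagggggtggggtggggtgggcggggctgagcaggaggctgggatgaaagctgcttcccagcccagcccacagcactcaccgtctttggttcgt
Gfi1b, chr2:28621933-28622232, minus strand: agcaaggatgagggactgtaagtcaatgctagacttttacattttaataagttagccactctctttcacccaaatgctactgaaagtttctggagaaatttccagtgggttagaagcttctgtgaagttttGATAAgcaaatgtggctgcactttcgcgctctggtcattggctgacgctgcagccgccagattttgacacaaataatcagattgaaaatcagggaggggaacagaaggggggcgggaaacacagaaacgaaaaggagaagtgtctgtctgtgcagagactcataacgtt
GATAA was found in a window of 5 of the 11 blood genes that rose and have one (*Alas2*, *Cbfa2t3*, *Epor*, *Gfi1b* and *Klf1*). It is a frequent word, present in 25.4% of all windows and in at least 1 window of 28.4% of genes. Binding was not measured here.

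Of 10 compared endothelial receptors and junction genes 2 rose (median log2 ratio 0.49) and *Kdr* fell, against 4.46% and 5.21% of all compared genes. *Pecam1*, or CD31, an adhesion molecule of endothelium and early blood cells, had 6.07 CPM at E7.25 (4.70 and 7.41) and 25.7 CPM at E7.75 (34.8 and 20.2). *Esam*, a junction molecule of endothelium and platelets, had 3.92 and 18.6 CPM. *Flt1*, the VEGF receptor VEGFR1, had 43.8 and 68.4 CPM and *Tek*, the angiopoietin receptor, 49.3 and 83.2 CPM, with no call for either. *Cdh5*, or VE-cadherin, the junction protein that defines endothelium, was too low to be compared, at 6.08 and 8.41 CPM.

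Genes of smooth muscle and yolk sac mesenchyme also rose. Of 9 compared members 8 rose, against 4.46% of all compared genes, none fell and the median log2 ratio was 1.18. *Acta2* (chromosome 19, 34241090 to 34255590, minus strand), smooth muscle actin, had a mean of 22.6 CPM at E7.25 (16.4 and 28.7) and 214 CPM at E7.75 (316 and 151.97), a log2 ratio of 3.19. The median cell had 0 CPM at E7.25 and 15.7 CPM at E7.75, and at least 10 counts were found in 13.6% (8.51 to 20.2) and 51.4% (42.8 to 60.0) of cells. *Tagln*, the actin-binding protein transgelin, had 35.8 CPM (35.9 and 35.6) and 119.8 CPM (154.9 and 98.5). *Cnn2*, a calponin, was already in most cells and went from 204 to 509 CPM. *Dlk1*, a Notch-like membrane protein, had 1.46 and 10.8 CPM, the latter 9.65 CPM and no longer compared without its highest cell. The rises of *Myl9*, *Tpm1*, *Tpm2* and *Hsd11b2* were small, at log2 ratios of 1.06, 1.02, 1.18 and 1.05, and when set against genes of like GC content only 4 of the 9 members rose. Under the mean of log values 5 did. Averaged without the highest cells 5 did. Of endothelial cells, 13.9% at E8.5 (7.16 to 23.5) and 4.92% at E10.5 (1.03 to 13.7) had at least 10 counts of *Acta2*, with means of 21.0 and 122.1 CPM, so the E7.25 share of 13.6% was like that of E8.5 endothelium.

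The promoters of *Myl9* and *Cnn2* are shown because they hold a CArG box, the 10-letter sequence bound by serum response factor, which drives contractile genes. The windows are as above, with the box in capitals.
Myl9, chr2:156775214-156775513, plus strand: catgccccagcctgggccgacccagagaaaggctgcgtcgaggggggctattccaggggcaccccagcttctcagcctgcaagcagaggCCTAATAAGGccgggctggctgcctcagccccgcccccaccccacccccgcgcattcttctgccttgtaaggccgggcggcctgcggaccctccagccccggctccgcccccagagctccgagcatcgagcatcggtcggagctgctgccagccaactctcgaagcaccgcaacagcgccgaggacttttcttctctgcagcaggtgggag
Cnn2, chr10:79988350-79988649, plus strand: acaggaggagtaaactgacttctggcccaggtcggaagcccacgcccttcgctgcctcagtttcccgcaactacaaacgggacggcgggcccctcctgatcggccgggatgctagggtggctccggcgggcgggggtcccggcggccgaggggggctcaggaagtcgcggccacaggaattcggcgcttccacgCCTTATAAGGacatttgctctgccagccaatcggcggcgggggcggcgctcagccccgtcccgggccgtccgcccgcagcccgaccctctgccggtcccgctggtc
The box was found in a window of 2 of the 6 mesenchyme genes that rose and have one. It is present in 1.63% of all windows and in at least 1 window of 1.81% of genes. The match describes the letters alone.

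Matrix and cytoskeletal genes moved in the same direction in part. Of 17 compared genes of the extracellular matrix 6 rose and 1, *Has2*, fell (median log2 ratio 0.52), where 4.46% and 5.21% of all compared genes did. *Col1a1* and *Col1a2*, the chains of type I collagen, rose by 2.24 and 1.53 on the log2 scale, to 53.5 and 40.6 CPM at E7.75. The basement membrane genes *Lamc1*, *Col4a1* and *Col4a2* rose by 1.83, 1.15 and 1.14 on the log2 scale, and *Col5a2* by 1.22. Without the highest cells *Col4a1* had a log2 ratio of 0.92 and was not called. *Fn1*, fibronectin, had 679 and 515 CPM and was not called. In the list of epithelial-mesenchymal transition, cadherin and intermediate filament genes 3 of 9 rose and 1 fell (median 0.76), where 4.46% and 5.21% of all compared genes did. *Krt8* and *Krt18*, partner keratins of simple epithelia and early mesenchyme, had 144.3 and 366 CPM at E7.25 and 304 and 808 CPM at E7.75, and *Zeb1*, a repressor of epithelial genes, rose by 1.01. The balance of this list turned with the processing: none rose and 4 fell under the mean of log values, and 1 rose and 2 fell with GC centring. *Vim*, vimentin, had 180 and 305 CPM (log2 ratio 0.76).

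Of 13 compared transcription factors of extraembryonic mesoderm 3 rose, *Gata4* fell, and the median log2 ratio was 0.12, where 4.46% and 5.21% of all compared genes rose and fell. Under the mean of log values 2 rose and 3 fell. *Nr2f2*, or COUP-TFII, a nuclear receptor of mesenchyme and veins, had 0.468 CPM (0.315 and 0.619) and 12.2 CPM (10.8 and 13.1). *Foxf2*, a forkhead factor, had 1.69 and 12.7 CPM, of which 1 cell held 42.9% (7.32 CPM and no longer compared without it), and *Snai2*, or Slug, a factor of mesenchymal transition, 12.2 CPM (3.04 and 21.3) and 68.1 CPM (94.1 and 52.2). In contrast to *Foxf2*, its relative *Foxf1* was not called. *Tbx4*, a T-box factor of the allantois, rose from 0.300 to 13.9 CPM, of which 1 cell held 41.5%, and was called neither without the highest cells (8.19 CPM) nor under the mean of log values, whereas *Wnt2* of the same marker list fell. *Tnnt2*, a troponin of cardiac and early mesoderm cells, rose from 4.98 to 27.3 CPM. It was 1 of 2 compared members of the cardiac marker list, and the other, *Myl7*, was not called (log2 ratio -0.62). The sum over that list, given below, did not rise.

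**Figure D4:**
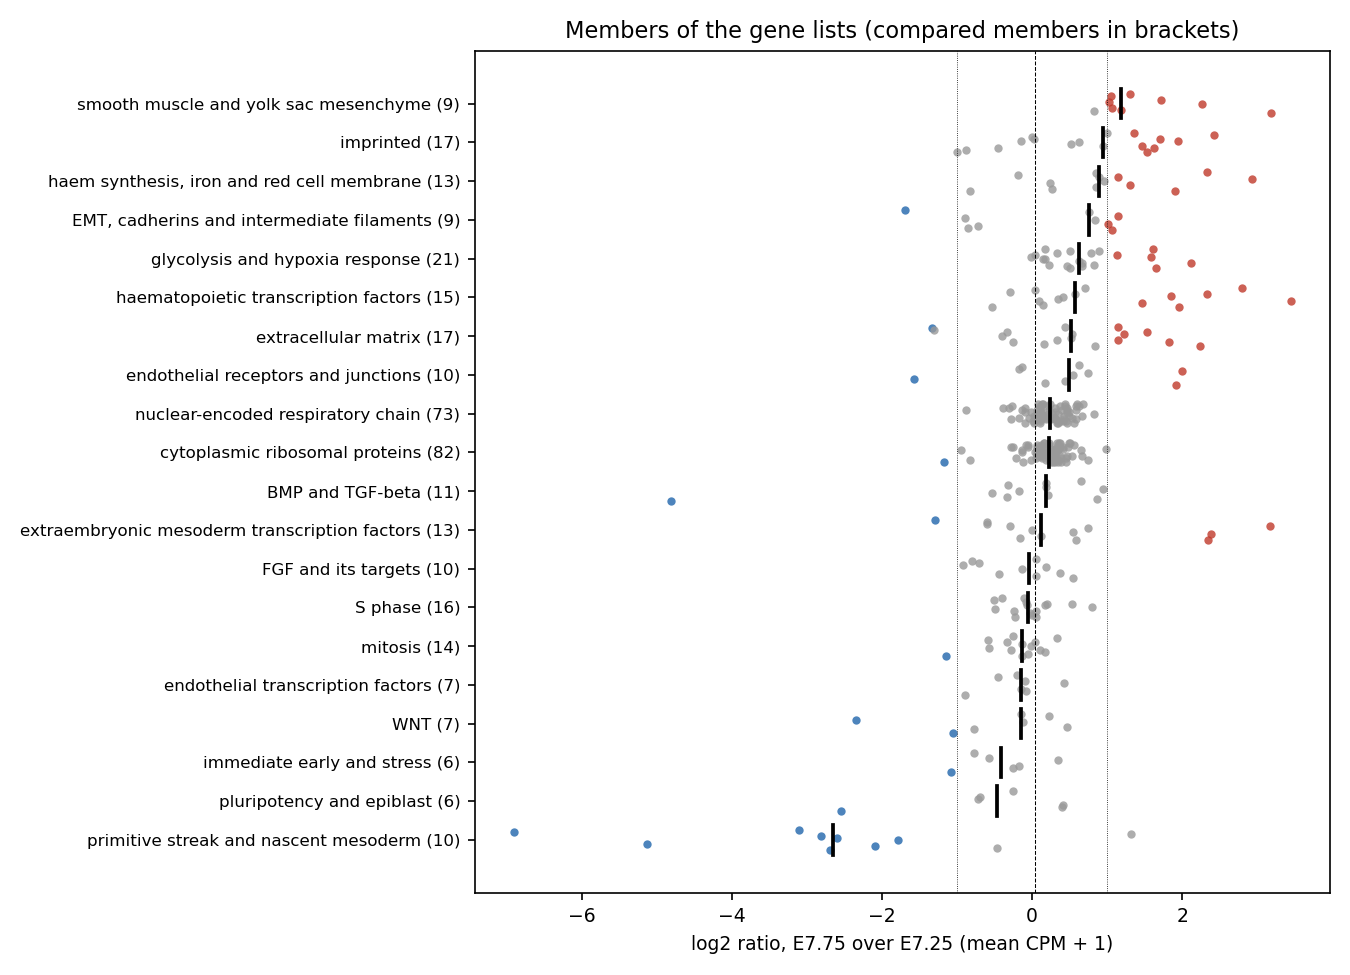
Log2 ratio of E7.75 over E7.25 (x axis) for each compared member of the 20 gene lists with 6 or more compared members, ordered by list median (black bars), with the number of compared members in brackets. Red points rose, blue points fell, grey points were not called, the dashed line marks the median of all compared genes (0.04) and the dotted lines 2-fold; of the lists drawn, the streak list lies lowest (median -2.65) and the smooth muscle and mesenchyme list highest (1.18), and the early blood surface list (3 members, median 2.62) and the single compared globin (4.96) are not drawn.

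Of 17 compared imprinted genes 7 rose and none fell (median log2 ratio 0.95), where 4.46% of all compared genes rose. Under the mean of log values 3 fell, and 1 fell with GC centring or without the highest cells. *Igf2r* (chromosome 17, 12682406 to 12769664, minus strand), the receptor that clears IGF2, had 65.3 CPM at E7.25 (60.1 and 70.4) and 254 CPM at E7.75 (251 and 255). Nearly every cell carried it, with at least 10 counts in 96.6% and 99.3% of cells, and the median cell went from 54.8 to 182 CPM. *Igf2*, the growth factor itself, rose from 123.3 to 405 CPM and its neighbour *H19*, a non-coding RNA, from 371 to 1070 CPM. *Rian* and *Meg3*, non-coding RNAs of the *Dlk1* domain, rose from 178 to 547 CPM and from 74.0 to 206 CPM, and *Mirg* of the same domain from 2.69 to 18.9 CPM, of which 1 cell held 73.6%. *Cdkn1c*, a cell cycle inhibitor, rose by 1.36 on the log2 scale. In contrast *Peg3* had 1862 and 1014 CPM, and *Mest* 455 and 704 CPM, without a call.

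Genes of glucose use rose in part. Of 21 compared genes of glycolysis and the hypoxia response 5 rose, against 4.46% of all compared genes, none fell and the median log2 ratio was 0.63. *Slc2a1* and *Slc2a3*, the glucose transporters GLUT1 and GLUT3, had 347 and 314 CPM at E7.25 and 1087 and 688 CPM at E7.75. *Hk1*, a hexokinase, rose from 1.76 to 11.0 CPM (9.10 CPM and no longer compared without its highest cell), *Vegfa*, the ligand of FLK1, from 4.56 to 16.0 CPM and *Ndrg1*, a gene of the hypoxia response, from 3.31 to 11.9 CPM. The enzymes further down the pathway were not called, *Gapdh* among them with a log2 ratio of 0.51.

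The remaining genes of the 15 with the largest rises came from no list. *Abcg1*, a cholesterol exporter, rose from 22.5 CPM (17.0 and 27.9) to 253 CPM (280 and 237), and at least 10 counts were found in 22.4% and 34.3% of cells. *Ece1*, the endothelin-converting enzyme, rose from 202 to 646 CPM, *Tgfbr3*, the co-receptor betaglycan, from 27.0 to 101.9 CPM, *Ddah1*, an enzyme that breaks down methylated arginine, from 94.3 to 307 CPM and *Foxp1*, a forkhead factor, from 30.7 to 103.1 CPM. *Uhrf1bp1* rose from 15.9 to 113.2 CPM, and this value rested on a single cell of E7.75 lane 7 with 13082 CPM, 82.5% of the sum over the stage. Without the highest cells its means were 14.6 and 19.9 CPM and it was not called. For *Foxp1* 1 cell held 41.2% of the sum, and the log2 ratio without the highest cells was 1.05.

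Further genes were named after their values were seen. *Tspan32*, a tetraspanin of blood cells, rose from 0.378 to 31.5 CPM and *Slc38a5*, an amino acid transporter, from 3.91 to 45.3 CPM. *Lrp2*, the endocytic receptor megalin, rose from 8.28 to 75.8 CPM, *Ednrb*, an endothelin receptor, from 0.860 to 16.9 CPM, *Smoc2*, a matrix protein, from 1.06 to 18.2 CPM and *Itga3*, a laminin-binding integrin, from 2.56 to 44.3 CPM. *Gm29438* had the highest ratio of these, 5.72, but a single cell held nearly all of the E7.75 sum, and without the highest cells its log2 ratio was 0.24. Its log2 ratio was -0.02 under the mean of log values.

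Several lists held few or no called genes, where 4.46% of all compared genes rose and 5.21% fell. None of 16 compared S phase genes was called (median log2 ratio -0.05), and of 14 mitotic genes *Bub1*, a spindle checkpoint kinase, alone fell (median -0.13). Of 82 ribosomal protein genes *Rpl39* alone fell (median 0.23), and none of 73 nuclear-encoded genes of the respiratory chain was called (median 0.24). Of 6 immediate early and stress genes, which dissociation can induce, *Klf4* alone fell (median -0.41), and it was not called under plain CPM or the mean of log values. The *Bub1* fall and that of *Has2* were not called when set against genes of like GC content. *Dhrs3*, a retinal reductase, alone rose among 4 retinoic acid genes (median -0.05), and *Hoxd8* alone among 3 *Hox* genes (median 0.21). *Hoxd8* was called neither under the mean of log values nor without its highest cell.

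Markers of the other cell types that a yolk sac sort could hold were at low levels or absent from the filtered table in most lists. Of 10 markers of visceral endoderm 3 were in the filtered table, their sum averaging 97.7 CPM at E7.25 and 85.3 CPM at E7.75, nearly all of it *Apoe* (97.4 and 84.3 CPM), and *Ttr* and *Apoa1* were near 0. The 2 trophoblast markers in the table summed to 57.7 and 81.4 CPM, the epiblast marker *Epcam* fell, and the marker of definitive endoderm and axial mesoderm in the table was at 8.40 and 0.269 CPM. No macrophage or paraxial mesoderm marker reached the level for comparison. The primitive erythroid sum went from 23.7 CPM (39.4 and 8.22 in the captures) to 551 CPM (882 and 350), and all 3 compared markers of that list (*Hbb-bh1*, *Alas2* and *Klf1*) rose. None of the 3 met the limits for comparison at E7.25, so none could have been called as fallen. The share of cells and the level within them are given below.

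To separate the share of cells from the level within them, shares were taken in cells thinned to 840000 counts. Thinning left out 18 E7.75 cells and none at E7.25. Means over positive cells were taken in all cells at full depth, so the 2 measures differ in cells and depth. A cell was first taken as positive at 1 count, which includes the low counts described above. Of the 396 genes that rose, 88 had a 2-fold higher share of cells with a count, 213 a 2-fold higher mean over the cells with one, and 43 both. Of the 462 that fell, 84 had a 2-fold lower share, 292 a 2-fold lower mean, and 33 both. The other genes reached 2-fold in neither measure. The share thus changed 2-fold in 22.2% of the genes that rose and 18.2% of those that fell, and the mean in 53.8% and 63.2%. With a cell taken as positive at 10 counts these became 39.1% and 30.5% for the share, and 42.7% and 50.4% for the mean. *Igf2r* moved in level alone, with a count in 99.3% and 100% of thinned cells. *Hbb-bh1* moved in both at 1 count, from 8.84% to 68.0% of thinned cells and from 157.8 to 623 CPM in unthinned cells with one.

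**Figure D5:**
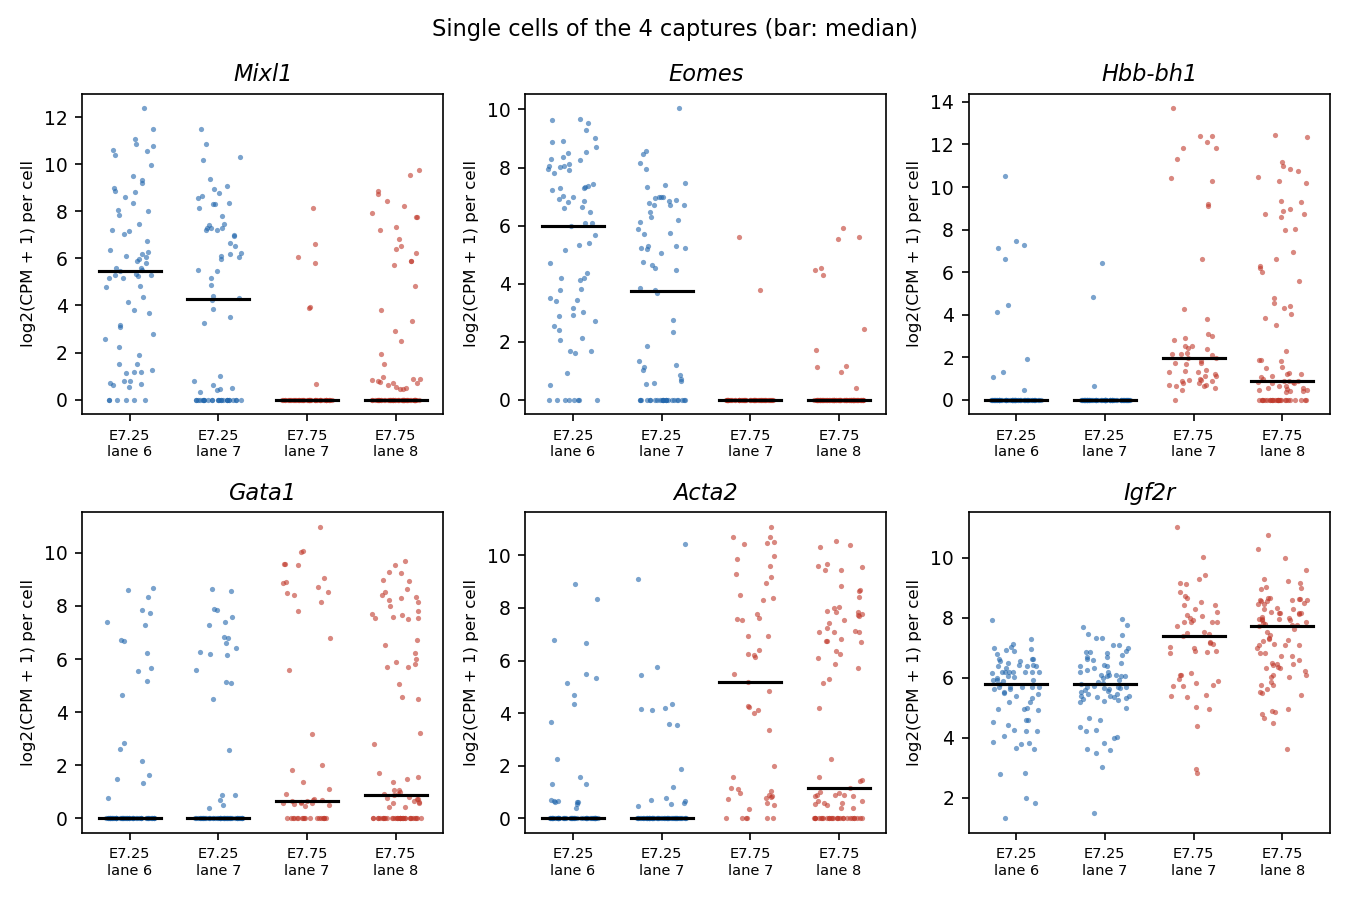
Log2(CPM + 1) per cell (y axis) of 6 genes in the 4 captures (x axis), with each point a cell and each bar the median. *Mixl1* and *Eomes* fall to a median of 0 in both E7.75 captures, *Hbb-bh1*, *Gata1* and *Acta2* are high in a part of the E7.75 cells, and the median of *Igf2r* is higher in both E7.75 captures, with E7.75 cells that overlap the E7.25 range.

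Within single cells the called genes of each programme were counted after thinning, a gene being present at 10 counts or more. At least 3 of the 8 streak genes that fell were present in 98 E7.25 cells (66.7%, interval 58.4 to 74.2) but in 7 E7.75 cells (5.74%, 2.34 to 11.5). The captures gave 78.1% and 55.4% at E7.25, and 1.96% and 8.45% at E7.75. At least 3 of the 15 blood genes that rose were present in 23.8% of E7.25 cells (17.2 to 31.5), against 49.2% at E7.75 (40.0 to 58.4). At least 3 of the 8 mesenchyme genes that rose were present in 59.9% (51.5 to 67.9) and 76.2% (67.7 to 83.5). As the genes were chosen for their change between the stages, these shares describe that change and are not further support for it.

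The way the programmes combined in cells was not used to choose the genes. At E7.25, 22 of 35 cells with at least 3 blood genes (62.9%, 44.9 to 78.5) also had at least 3 mesenchyme genes, and 66 of the cells without them did (58.9%, 49.2 to 68.1). As the median E7.25 cell had 3 mesenchyme genes, reaching 3 does not mark a mesenchyme programme at that stage. At E7.75, 34 of 60 cells with at least 3 blood genes (56.7%, 43.2 to 69.4) had at least 3 mesenchyme genes, against 59 of 62 without them (95.2%, 86.5 to 99). At E7.75 these shares were 47.8% and 100% in lane 7 and 62.2% and 91.2% in lane 8, and at E7.25 65.0% and 54.7% in lane 6 and 60.0% and 62.7% in lane 7. Both E7.75 captures thus had fewer such cells among those with blood genes. The difference between the stages was not tested. For streak genes, the intervals of cells with and without blood genes overlapped at both stages. At E7.25 at least 3 of them were in 20 of 35 cells with blood genes (57.1%, 39.4 to 73.7) and 78 without (69.6%, 60.2 to 78.0), and at E7.75 in 2 of 60 (3.33%, 0.406 to 11.5) and 5 of 62 (8.06%, 2.67 to 17.8).

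Single genes showed the same arrangement. At E7.75, 32 of 44 cells with *Gata1* (72.7%, 57.2 to 85.0) had *Hbb-bh1*, against 4 of 78 without (5.13%, 1.41 to 12.6). At E7.25, 8 of 32 cells with *Gata1* (25.0%, 11.5 to 43.4) had *Hbb-bh1*, against 1 of the cells without (0.870%, 0.022 to 4.75). *Hbb-bh1* was thus found mostly in cells with *Gata1* at both stages. *Acta2* was present in 7 of 44 E7.75 cells with *Gata1* (15.9%, 6.64 to 30.1) and in 55 of 78 without (70.5%, 59.1 to 80.3), with 5.88% and 85.3% in lane 7 and 22.2% and 59.1% in lane 8, whereas at E7.25 it was in 5 of 32 (15.6%, 5.28 to 32.8) and 11 of those without (9.57%, 4.87 to 16.5). The E7.25 captures went opposite ways for *Acta2*. It was in 28.6% of cells with and 8.47% without *Gata1* in lane 6, and in 5.56% and 10.7% in lane 7. *Kdr* was present in 23 of 44 E7.75 cells with *Gata1* (52.3%, 36.7 to 67.5) and 24 of 78 without (30.8%, 20.8 to 42.2). Cells that held counts of both sexes made up 23.3% and 21.6% of the E7.25 captures, and at E7.75 none of lane 7, which was nearly all male, and 19.5% of lane 8, and their part in genes found together was not tested.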

How the data were processed

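Single cells were sorted for *Flk1*-GFP, captured on Fluidigm C1 chips, and made into Nextera XT libraries that were read as paired 100-base reads. Per the labels and the methods of the study, reads were aligned with Subread to GRCm38 and assigned to Ensembl 84 genes with featureCounts (versions not given in the sources used here). The authors deposited whole-number counts for all captured cells and for those kept by their quality filter, and a table of CPM. The deposited CPM are a signal scaled by scran size factors, so cells differ in their sum (699615 to 2511783, median 950755). All columns used belong to samples of the series.

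The level of a gene was the mean CPM over the cells of a stage, and the ratio was log2 of the E7.75 over the E7.25 mean, each with a pseudocount of 1 CPM. Python 3.11.15, numpy 2.4.6, pandas 2.3.3 and scipy 1.17.1 were used, and the scripts were tested on simulated data. No count model was fitted, since each stage is 1 sample. Thinning drew 840000 counts per cell without replacement. Coordinates and GC content came from the GENCODE M21 annotation of GRCm38 and promoter windows from RefSeq.

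Named were the 15 genes per direction with the largest ratios among called genes at 100 CPM and in 50% of cells at the higher stage, the called members of 26 gene lists and 10 marker lists, the highest member of a list with none called, and defining members. Other genes are said to have been chosen after their values were seen. The comparison, members and lists were chosen with earlier results of these data known. Alternatives tried were plain CPM, the mean of captures, the mean of log values, other pseudocounts, filters and folds, thinning, leaving out each capture, leaving out cells with counts of both sexes or of endoderm and epithelial genes, all captured cells, GC centring, cells with Y-linked counts only and leaving out each gene's highest cell.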

Additional observations from a re-analysis of the deposited data

Results flagged for a closer look

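Of the genes of the lists, 60 were left out of the authors' filtered table, and 18 of them nevertheless had 10 counts or more in a share of cells above the limit that 0 cells would allow, taken as 3 cells of the stage's total (2.04% at E7.25 and 2.14% at E7.75). They are given because no comparison above uses them, and the shares come from the table of all captured cells, over the cells that were kept. The difference between the stages was not tested.

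*Dll3*, a Notch ligand of presomitic mesoderm, was in 11.6% of E7.25 cells. *Tbx6*, a T-box factor of paraxial mesoderm, was in 8.16% of E7.25 and 2.86% of E7.75 cells, and *Sp5*, a WNT target, gave the same shares. *Mesp2* was in 4.76% and *Msgn1* in 2.72% of E7.25 cells. Of the posterior homeobox genes, *Cdx1* was in 4.08% of E7.25 and 5.00% of E7.75 cells, and *Cdx2* passed the limit at E7.75, in 6.43% of cells.

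Genes of less mature or other cells were found in few cells of E7.25. *Nanog*, a factor of pluripotent cells and of the posterior epiblast, and *Fgf5*, a ligand of the epiblast, were each in 5.44%. *Cdh1*, or E-cadherin, was in 2.72%, *Nr2f1* also in 2.72%, and *Tbx2* and the immediate early gene *Egr2* in 3.40% each.

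Signalling and later patterning genes made up the rest. *Wnt2b* was in 8.84% of E7.25 and 5.00% of E7.75 cells, and *Notum*, a WNT antagonist, in 6.12% and 6.43%. *Wnt11* was in 5.71% and *Hoxa11* in 4.29% of E7.75 cells. *Smarcd3*, a chromatin remodelling subunit of early heart mesoderm, was in 7.48% and 10.7%.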

How the results depend on the processing

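Of 396 genes that rose and 462 that fell, the counts moved by over 1.5 times under some settings. Under the mean of log values 221 rose, 171 of them among the 396, and 400 fell, 240 of them among the 462. With a pseudocount of 10 CPM 161 rose and 214 fell, with no filter 811 and 827, with a filter of 100 CPM and 50% of cells 47 and 94, and at 4-fold 85 and 77, where the construction of the setting changes the count. Leaving out a capture gave 404 to 739 genes that rose and 473 to 727 that fell. The highest counts came without E7.75 lane 8, which leaves the male lane 7 alone for E7.75 and fewer captures to lie apart. Plain CPM, capture means, a pseudocount of 0.1 CPM, thinning, all captured cells, captures not required to lie apart, and leaving out cells of both sexes or with endoderm markers each gave 408 to 450 genes that rose and 390 to 497 that fell. Averaging each gene without its highest cell at each stage gave 302 and 424. Cells with Y-linked counts only, 90 and 62, gave 511 and 567.

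The named genes that were called all kept their direction in every setting except *Gm29438* under the mean of log values (-0.02), and 88 kept a 2-fold ratio there. In some settings the direction could not have turned. A called gene has the captures of the stages apart, so leaving out or averaging captures cannot reverse it. Another pseudocount cannot change which stage mean is higher. Those settings therefore test the size of a ratio and not its direction. Without the highest cells *Gm29438*, *Uhrf1bp1*, *Mirg*, *Tpm1*, *Tpm2*, *Col4a1* and *Zfp473* were under 2-fold, and the other named genes kept it. By list, the mean of log values gave 3 genes that fell in each of the imprinted, extraembryonic factor and BMP lists, 4 in the epithelial-mesenchymal list, 2 in each of the FGF, pluripotency and endothelial receptor lists and 1 in the haem list, and *Hoxd8* and *Tbx4* were lost. GC centring gave 1 endothelial factor, 2 epithelial-mesenchymal and 1 imprinted gene that fell, and 1 BMP, 1 epithelial-mesenchymal and 1 ribosomal protein gene that rose. Without the highest cells *Hoxd8*, *Tbx4*, *L1td1*, *Klf4*, *Foxf2*, *Nfe2*, *Itga2b*, *Dlk1* and *Hk1* were 2-fold apart but under the level for comparison, and 1 imprinted, 1 retinoic acid and 2 epithelial-mesenchymal genes fell. The streak list gave 8 or 9 falls under each setting run on lists. The causes were not tested. No paired analysis was possible because the labels tie no E7.25 capture to an E7.75 capture. Depth limits genes under about 10 CPM, and 2 captures a stage limit all ratios.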

Other observations

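The 2 captures of a stage were not alike, and their order differed between programmes. At E7.25, the lane 6 capture had more *Mixl1*, *Eomes* and *T* (357, 146.7 and 85.2 CPM) than lane 7 (185, 65.1 and 48.2 CPM), and also more *Hbb-bh1* (28.7 against 1.54 CPM). Most of that *Hbb-bh1* value came from a single lane 6 cell with 1482 CPM. Lane 7 had more *Acta2*, *Krt18* and *Snai2* (28.7, 494 and 21.3 CPM) than lane 6 (16.4, 237 and 3.04 CPM). At E7.75, lane 8, with mostly *Xist* counts, had more *Mixl1* and *T* (54.2 and 12.9 CPM) than lane 7 (9.89 and 3.63 CPM) and less *Hbb-bh1*, *Gata1* and *Acta2* (312, 96.4 and 151.97 CPM, against 804, 190 and 316 CPM). Embryo stage within a litter, sex and chip cannot be told apart in these captures. The share of cells with at least 10 counts, in unthinned cells of lanes that differ in depth (medians 2759528 and 1620915 counts), differed less than the means, at 41.5% in lane 7 (28.1 to 55.9) and 34.5% in lane 8 (24.6 to 45.4) for *Hbb-bh1*, and at 34.0% (21.5 to 48.3) and 39.1% (28.8 to 50.1) for *Gata1*.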
